A study of Mus musculus with 6 samples.

Results

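A set of 7 conventional chemokine receptors was followed in infarcted mouse hearts with and without ACKR4. They are Ccr1, Ccr2, Ccr7, Ccr9, Cx3cr1, Cxcr4 and Cxcr6, chosen as the rows of the deposited count table that carry these symbols, 7 genes among 54532 rows. All 7 were found, and 6 of them, all but Ccr9, passed the filter on low counts. Mice lacking the atypical chemokine receptor ACKR4, named ACKR4_KO (3 libraries), were compared with wild-type mice, named WT (3 libraries). Both groups were C57BL/6 mice of 8 to 10 weeks, and all hearts were taken at day 14 after myocardial infarction, so every heart was injured and no uninjured heart was compared here. The labels do not say how the ACKR4 allele was made, which part of the heart was sampled, or which animal or operation day each library came from. RNA was sequenced from whole tissue, so fewer cells of a type and less RNA per cell cannot be told apart in any value below.

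Conventional chemokine receptors are membrane receptors on leukocytes that couple to G proteins of the Gi class and steer cells along chemokine gradients. CCR2 brings monocytes out of the bone marrow and into injured heart, CX3CR1 is carried by patrolling monocytes and tissue macrophages, and CXCR4 and CXCR6 are found on many leukocytes and on effector and tissue-resident T cells. CCR7 guides dendritic cells and T cells to lymph nodes along CCL19 and CCL21, and CCR9 responds to CCL25. These ligands of CCR7 and CCR9 are the ones that ACKR4 binds and removes without signalling through G proteins, which makes both receptors the counterparts of the missing gene.

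Libraries held 9422462 to 13910358 counted reads. Levels are CPM (reads scaled to a common library total) on TMM-scaled library sizes, and fold changes are ACKR4_KO over WT. ACKR4_KO libraries held 4, 1 and 12 reads of Ackr4, against 165, 151 and 169 reads in WT libraries. The ACKR4_KO libraries varied more among themselves, with a biological coefficient of variation of 26.7%, against 11.7% in WT. Replicate 2 of ACKR4_KO stood apart. Its summed fibroblast markers were 3809 CPM, against 8897 to 11390 CPM in the other 5 libraries, and its summed pan-leukocyte genes were 239 CPM, against 327 to 393 CPM. The 10 lung epithelium markers summed to 1.05, 2.15 and 2.01 CPM in the ACKR4_KO libraries, against 271, 44.1 and 132 CPM in the WT libraries, so the WT libraries carried lung transcripts that the ACKR4_KO libraries nearly lacked. Of these markers Sftpc, Sftpd, Scgb1a1, Cldn18 and Slc34a2 were at 0 reads in every ACKR4_KO library. Scgb1a1 was low in WT too, with 5, 0 and 2 reads. The others, Sftpa1, Sftpb, Ager, Lamp3 and Chil1, had between 0 and 16 reads in each ACKR4_KO library.

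By edgeR's quasi-likelihood test none of the 6 tested receptors passed an adjusted p of 0.05, and neither did any gene of the 14406 tested (0%). DESeq2 called 39 genes (0.271%), among them 7 lung epithelium markers, but 0 of the receptors, and limma-voom called 0 genes. At an unadjusted p under 0.05 there were 2 receptors, Cxcr6 and Cxcr4, both with a lower mean in ACKR4_KO, where 3.64% of all genes met that mark in that direction. Of these, Cxcr6 passed the filter on low counts through its WT counts. All 6 tested receptors had a fitted log2 fold change below 0, as did 48% of all genes, and their median was -0.46, against 0.01 over all genes. The 8 pan-leukocyte genes, which include Ptprc (the CD45 phosphatase of all leukocytes), also all lay below 0, with a median of -0.30, and without ACKR4_KO replicate 2 it was 7 of 8 with a median of -0.18. Lists of other cells did so too, with all 8 endothelium genes (median -0.26) and all 8 fibroblast genes (median -0.38) below 0. All 8 cardiomyocyte genes lay above 0 (median 0.45). A lower level was thus not particular to receptors or leukocyte genes. ACKR4_KO replicate 2 was the lowest of the 6 libraries for 4 of the 6 tested receptors, Ccr2, Cx3cr1, Cxcr4 and Cxcr6, and for 25.6% of all genes. Without that library 5 of the 6 receptors lay below 0, and their median was -0.29. Without ACKR4_KO replicate 3 it was 4 of the 6, with a median of -0.69, and without WT replicate 1 the median of the 5 that passed the filter was -0.76.

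**Figure D1:**
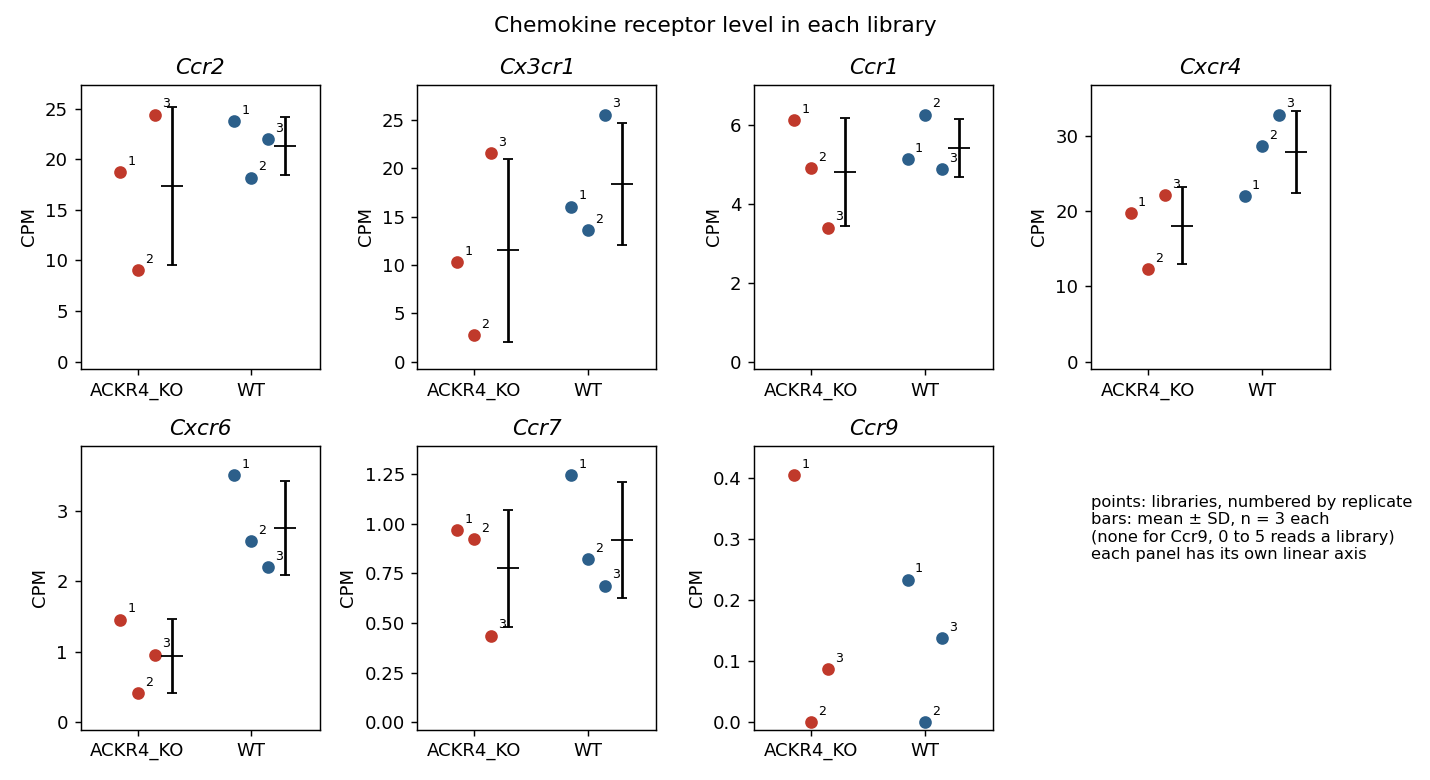
Level of each receptor in CPM (linear axes, one per panel) in the 3 ACKR4_KO and 3 WT libraries, with each point numbered by replicate and bars giving the mean ± SD. The genotypes separate in the Cxcr6 panel, where the ACKR4_KO points lie between 0.410 and 1.45 CPM and the WT points between 2.20 and 3.50 CPM, and overlap in the other 6.

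Divided by exonic length, so that genes can be compared, Cxcr4 had the highest level of the 7 in both genotypes, 10.0 ± 2.85 CPM per kb in ACKR4_KO and 15.4 ± 3.02 CPM per kb in WT (mean ± SD, n = 3 each). Ccr2 and Cx3cr1 came next, at 2.57 ± 1.15 and 2.56 ± 2.10 CPM per kb in ACKR4_KO and at 3.16 ± 0.423 and 4.08 ± 1.40 CPM per kb in WT. The library ranges of these 2 genes overlapped in each genotype. Within single libraries Cx3cr1 was above Ccr2 in every WT library, narrowly in one of them, but in ACKR4_KO only in replicate 3. In ACKR4_KO the ranges of both also overlapped that of Ccr1, and the range of Cx3cr1 overlapped that of Cxcr6. Ccr1 followed with 1.70 ± 0.483 CPM per kb in ACKR4_KO and 1.92 ± 0.261 in WT. The next level was that of Cxcr6, 0.487 ± 0.270 CPM per kb in ACKR4_KO and 1.43 ± 0.346 in WT. In WT the ranges of Ccr1 and Cxcr6 overlapped and those of Cxcr6 and Ccr7 did not, while in ACKR4_KO the ranges of Cxcr6 and Ccr7 overlapped and those of Ccr1 and Cxcr6 did not. Ccr7 was at 0.392 ± 0.149 CPM per kb in ACKR4_KO and 0.465 ± 0.147 in WT. Ccr9 was last in both. Its gene model spans 10.26 kb of exons, which lowers its level per length.

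The start regions of 3 receptors are shown because the results turn on them: Cxcr6 and Cxcr4 had the smallest p, and Cx3cr1 had the widest spread between libraries. Of the 7 genes 6 have an entry in RefSeq's table of promoters on GRCm38.p6, each with 250 bases before and 50 bases after the start site, and the sequences are given from 5′ to 3′ on the gene's strand. Capitals mark matches, on either strand, to any of 7 motifs. The Cxcr6 window is chr9:123806227-123806526 (plus strand), the Cx3cr1 window is chr9:120068247-120068546 (minus strand) and the Cxcr4 window is chr1:128592250-128592549 (minus strand).
Cxcr6: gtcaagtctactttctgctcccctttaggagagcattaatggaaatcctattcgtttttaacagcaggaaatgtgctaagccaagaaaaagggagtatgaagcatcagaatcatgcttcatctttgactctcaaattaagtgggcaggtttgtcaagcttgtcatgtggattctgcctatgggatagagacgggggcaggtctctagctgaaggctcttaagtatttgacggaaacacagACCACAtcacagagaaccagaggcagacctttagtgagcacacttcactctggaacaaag
Cx3cr1: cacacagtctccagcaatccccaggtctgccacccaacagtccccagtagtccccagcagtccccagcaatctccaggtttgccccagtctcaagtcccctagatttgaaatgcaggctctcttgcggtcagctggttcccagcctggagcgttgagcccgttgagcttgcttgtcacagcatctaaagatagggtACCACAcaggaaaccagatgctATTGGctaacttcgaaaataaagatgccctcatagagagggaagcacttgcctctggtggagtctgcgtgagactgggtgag
Cxcr4: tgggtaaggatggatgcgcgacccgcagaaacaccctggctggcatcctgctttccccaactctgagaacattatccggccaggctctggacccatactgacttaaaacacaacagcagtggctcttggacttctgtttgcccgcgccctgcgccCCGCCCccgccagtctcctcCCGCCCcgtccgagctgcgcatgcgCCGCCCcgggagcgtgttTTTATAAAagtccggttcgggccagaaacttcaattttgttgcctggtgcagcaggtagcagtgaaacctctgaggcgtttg

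Both strands were searched. The RUNX site TGTGGT was held by 16.8% of the 32851 promoters of the table. The PU.1 site GAGGAAGT was held by 3.2% of them, and the ETS core CCGGAAGT, which shares its last 6 letters with it, by 3.89%. The E-box CACGTG was held by 7.15% and the TATA box, written TATAAA, by 13.6%. The CCAAT box was held by 37.4% and the GC box, written GGGCGG, by 35.7%. The RUNX letters stand in the windows of Cxcr6, Cx3cr1 and Ccr1, in each on the opposite strand, beginning at -10, -54 and -58 from the start site. The Cx3cr1 window also holds CCAAT on the opposite strand at -32. The Cxcr4 window holds GGGCGG 3 times on the opposite strand and TATAAA on both strands at -32 and -30, where the matches overlap. The Cxcr4 window has a GC content of 59.3% and 20 CpG dinucleotides, against 44.3% and 3 in Cxcr6, 54.3% and 5 in Cx3cr1, and medians of 52.7% and 7 over all promoters. The windows of Ccr2 and Ccr9 hold none of the 7 motifs. These matches describe the letters alone.

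Among the receptors of monocytes and macrophages, Ccr2 and Cx3cr1 had their lowest value in ACKR4_KO replicate 2, and none of the 3 separated the genotypes. Ccr2 (ENSMUSG00000049103, chromosome 9, 124101950 to 124113557) is the receptor for CCL2, CCL7 and CCL12. It was at 18.7, 9.02 and 24.4 CPM in ACKR4_KO replicates 1, 2 and 3, against 23.8, 18.2 and 22.0 CPM in WT replicates 1, 2 and 3. ACKR4_KO replicate 3 held the highest value of the 6 and ACKR4_KO replicate 2 the lowest, so the WT range lay inside the ACKR4_KO range. The means were 17.4 ± 7.80 CPM in ACKR4_KO and 21.4 ± 2.86 CPM in WT (SD, n = 3 each). edgeR fitted a log2 fold change of -0.29 (standard error 0.32, adjusted p = 0.829). Without ACKR4_KO replicate 2 it was 0.01, with the opposite sign, and without ACKR4_KO replicate 3 it was -0.61.

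Cx3cr1 (ENSMUSG00000052336, chromosome 9, 119901616 to 120069879) encodes the receptor for fractalkine, CX3CL1. ACKR4_KO libraries had 10.3, 2.77 and 21.6 CPM, from 127, 27 and 247 reads, against 16.0, 13.6 and 25.6 CPM in WT libraries, from 206, 132 and 371 reads. ACKR4_KO replicates 1 and 2 lay below every WT library, and ACKR4_KO replicate 3 lay above 2 of the 3. The ACKR4_KO mean was 11.5 ± 9.46 CPM and the WT mean 18.4 ± 6.32 CPM. edgeR fitted a log2 fold change of -0.67 (standard error 0.64, adjusted p = 0.815), which does not exceed the spread between libraries. It depended on single libraries, with -0.22 without ACKR4_KO replicate 2, -0.35 without WT replicate 3 and -1.47 without ACKR4_KO replicate 3, and limma-voom gave -1.02. The order of the ACKR4_KO libraries for Cx3cr1 and Ccr2, lowest in replicate 2 and highest in replicate 3, was also that of their summed fibroblast markers (8897, 3809 and 11390 CPM in replicates 1, 2 and 3). Of the single fibroblast markers only Col1a1, Col1a2, Col3a1 and Tcf21 had that order. Pdgfra, Dcn, Lum and Dpt were highest in replicate 1 of ACKR4_KO. The summed monocyte and macrophage genes of the ACKR4_KO libraries were lowest in replicate 2 too, but highest in replicate 1 (1829, 1226 and 1533 CPM). Among WT libraries, replicate 2 had the highest fibroblast sum (10980 CPM) and the lowest Ccr2 and Cx3cr1. The part of tissue makeup in these values was not tested.

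Ccr1 (ENSMUSG00000025804, chromosome 9, 123962124 to 123968692) is a receptor of monocytes and neutrophils for CCL3, CCL5 and CCL9 among others. Its values were 6.14, 4.92 and 3.40 CPM in ACKR4_KO libraries, against 5.14, 6.28 and 4.89 CPM in WT libraries, and the groups overlapped. Ccr1 did not share the low value of ACKR4_KO replicate 2, and its lowest library was ACKR4_KO replicate 3. With 4.82 ± 1.37 CPM in ACKR4_KO and 5.43 ± 0.740 CPM in WT, edgeR fitted a log2 fold change of -0.17 (standard error 0.27, adjusted p = 0.893). Without ACKR4_KO replicate 3 it was 0.04, with the opposite sign, and without ACKR4_KO replicate 1 it was -0.38. It was -0.05 without WT replicate 2.

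Cxcr4 (ENSMUSG00000045382, chromosome 1, 128588199 to 128592293), the receptor for CXCL12 that holds leukocytes in marrow and tissue, had the second smallest p of the 6 tested. ACKR4_KO libraries had 19.8, 12.3 and 22.2 CPM, against 22.0, 28.7 and 32.9 CPM in WT libraries. The groups touched, since ACKR4_KO replicate 3 lay just above WT replicate 1, and the other values were separate. The mean was 18.1 ± 5.15 CPM in ACKR4_KO and 27.9 ± 5.47 CPM in WT. edgeR fitted a log2 fold change of -0.62 (standard error 0.23), an unadjusted p of 0.0275 and an adjusted p of 0.661. Without ACKR4_KO replicate 2 it was -0.41.

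Cxcr6 (ENSMUSG00000048521, chromosome 9, 123806475 to 123811760), the receptor for CXCL16 on effector and resident T cells and on natural killer T cells, was the only one of the 7 whose libraries did not overlap between genotypes. ACKR4_KO libraries held 18, 4 and 11 reads, against 45, 25 and 32 reads in WT libraries, which is 1.45, 0.410 and 0.960 CPM, against 3.50, 2.57 and 2.20 CPM. Every ACKR4_KO library lay below every WT library, a pattern seen in the lower direction for 7.63% of all genes tested. The WT counts of Cxcr6 alone met the filter on low counts, and its ACKR4_KO counts alone did not. The separation and the p-values are thus given as a description. The fit gave a log2 fold change of -1.51 (standard error 0.45, unadjusted p = 0.00933 by edgeR), but the adjusted p was 0.611 by edgeR and 0.341 by DESeq2. Fits to 5 libraries gave log2 fold changes between -1.97 and -1.18. The stricter filter removed the gene.

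Cxcr6 lies within the span of Fyco1, an autophagy adaptor gene on the opposite strand, with 0 exonic bases shared. The strand setting of the counting is not given, so intronic Fyco1 RNA on the Cxcr6 exons may be counted as Cxcr6, which was not tested. Fyco1 had 290, 260 and 199 CPM in ACKR4_KO libraries, against 208, 189 and 207 CPM in WT libraries, and its means were 249.7 ± 46.2 CPM in ACKR4_KO and 201 ± 10.7 CPM in WT. Per 100 Fyco1 reads there were 0.501, 0.158 and 0.482 Cxcr6 reads in ACKR4_KO libraries, against 1.68, 1.36 and 1.07 in WT libraries. Since the mean of Fyco1 was higher in ACKR4_KO, this ratio is lower there for that reason too.

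The 14 markers of T and NK cells had lower sums in the ACKR4_KO libraries, as Cxcr6 had lower levels, and neither they nor Cxcr6 passed an adjusted p. They summed to 13.1, 12.3 and 12.4 CPM in ACKR4_KO libraries, against 30.3, 27.8 and 24.7 CPM in WT libraries. Of these 11 passed the filter on low counts, some of them through their WT counts alone, so their counts and median are given as a description. All 11 had a log2 fold change below 0, with a median of -1.22, and 6 of them had an unadjusted p under 0.05 by edgeR, where 3.64% of all genes did in that direction. Without the filter all 14 lay below 0, with a median of -0.94, and 6 had such a p. By the adjusted p of edgeR or DESeq2 0 passed. In 8 of the 11 the ACKR4_KO libraries lay below all WT libraries, against 7.63% of all genes. Trbc1, a constant segment of the T cell receptor beta chain, was at 0.404, 0.410 and 0.175 CPM in ACKR4_KO libraries, against 1.71, 1.65 and 1.93 CPM in WT libraries (edgeR, adjusted p = 0.462). The coreceptor chain Cd8b1 was at 0.534 ± 0.0279 CPM in ACKR4_KO and 1.83 ± 0.155 CPM in WT. The part of T and NK cell number in the Cxcr6 values was not tested. The lung markers separated the genotypes in the same direction. Among WT libraries, replicate 2 had the least lung signal (44.1 CPM) and a Cxcr6 level of 2.57 CPM, between the other WT libraries. Without WT replicate 1, the library with the most lung signal (271 CPM), the Cxcr6 log2 fold change was -1.31. No WT library without lung transcripts was available here, so genotype and carried lung tissue cannot be told apart for Cxcr6. The same limit holds for every other receptor, ligand and cell marker compared between the genotypes here.

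**Figure D2:**
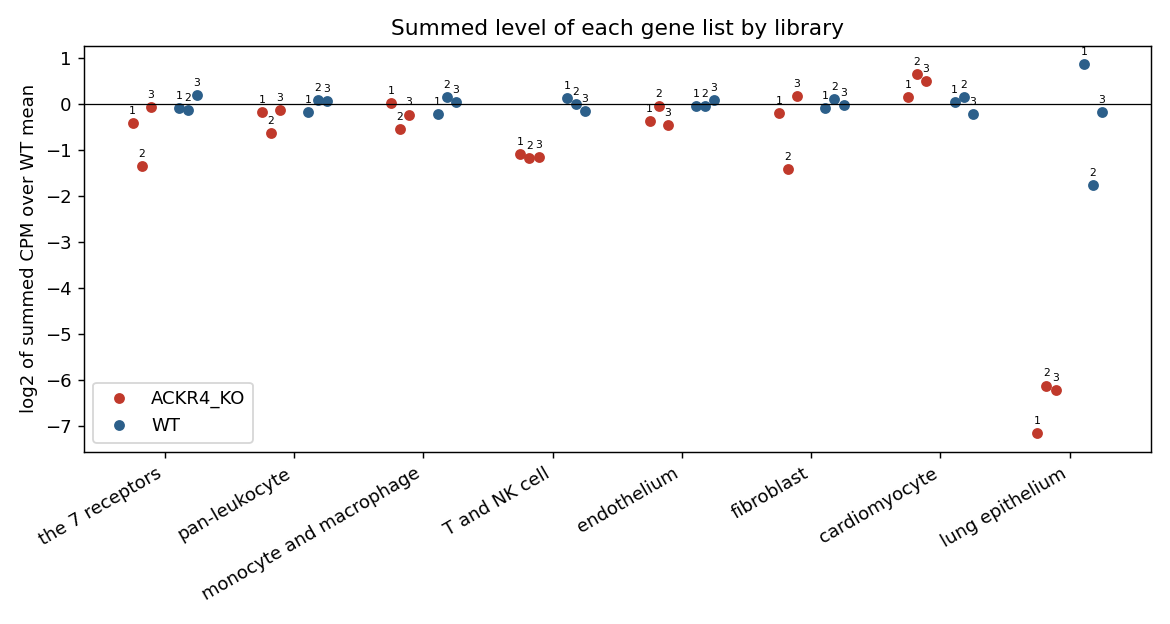
Summed CPM of 8 gene lists in each library, as log2 of its ratio to the WT mean, with each point numbered by replicate. The sums of the 7 receptors fall lowest in ACKR4_KO replicate 2 (30.3 CPM), as do those of fibroblast markers, while the T and NK cell and lung epithelium sums separate all 3 ACKR4_KO libraries from all 3 WT libraries.

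The receptors for the ligands that ACKR4 removes had few reads. Ccr7 (ENSMUSG00000037944, chromosome 11, 99144196 to 99155077) had 12, 9 and 5 reads in ACKR4_KO libraries, against 16, 8 and 10 reads in WT libraries. That is 0.969, 0.922 and 0.436 CPM in ACKR4_KO, against 1.25, 0.823 and 0.689 CPM in WT, and the values of the genotypes were interleaved. edgeR fitted a log2 fold change of -0.24 (standard error 0.48, adjusted p = 0.913), and without ACKR4_KO replicate 3 it was 0.05, with the opposite sign. The standard error was larger than the fold change, and no detection limit was computed for these counts. Leaving out ACKR4_KO replicate 2 gave -0.37, and leaving out WT replicate 3 gave -0.42.

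Ccr9 (ENSMUSG00000029530, chromosome 9, 123678439 to 123784330) had 5, 0 and 1 reads in ACKR4_KO libraries and 3, 0 and 2 reads in WT libraries. Its mean lay below the level of 3 reads in both genotypes, so no fold change is given. The Ccr9 exons share 1932 bases with those of AC165425.1 and 269 with those of Gm17200. How reads on shared bases were counted is not given, so the effect on the Ccr9 count was not tested. A count of 0 allows up to 0.307 CPM in ACKR4_KO replicate 2 and up to 0.309 CPM in WT replicate 2, which covers counting error only. Of the ligands of CCR7 and CCR9, Ccl21a had 5.09, 7.58 and 3.40 CPM in ACKR4_KO libraries, against 4.82, 7.20 and 2.96 CPM in WT libraries, and its 3 gene copies are near-identical, so its reads may be split between them. The copy Ccl21b had 4, 0 and 1 reads in ACKR4_KO libraries, against 3, 2 and 11 reads in WT libraries. The copy Ccl21c had 0 reads in every library. Ccl19 had a total of 1 read over the 6 libraries, in WT replicate 1. Ccl25 had 1.94, 1.02 and 2.44 CPM in ACKR4_KO libraries, against 1.87, 1.03 and 1.17 CPM in WT libraries. Neither ligand separated the genotypes, with log2 fold changes of 0.11 for Ccl21a and 0.41 for Ccl25 and standard errors of 0.39 and 0.43.

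Of the 7 receptors 5 lie on chromosome 9, which also carries Ackr4. On GRCm38 Cx3cr1 is 15.8 Mb from Ackr4 (104084157 to 104126933), and Ccr9, Cxcr6, Ccr1 and Ccr2 follow at 19.6, 19.7, 19.8 and 20.0 Mb. Log2 fold changes of the tested genes among them ran from -1.51 for Cxcr6 to -0.17 for Ccr1. Cxcr4 on chromosome 1 and Ccr7 on chromosome 11 had -0.62 and -0.24.

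Other conventional receptors were set beside these values. All 10 of the list had a read, but only Cxcr3, Xcr1 and Cxcr2 passed the filter, and the filter can favour genes that are high in 1 genotype. Each of them met it with its WT counts alone and not with its ACKR4_KO counts alone. Cxcr3, the receptor of activated T cells, had 0.646, 0.307 and 1.05 CPM in ACKR4_KO libraries, against 1.56, 1.96 and 2.07 CPM in WT libraries. Xcr1, the receptor of cross-presenting dendritic cells, had 0.404, 0.102 and 0.524 CPM in ACKR4_KO libraries, against 1.32, 1.03 and 1.24 CPM in WT libraries. Their log2 fold changes were -1.44 and -1.74, with adjusted p-values of 0.657 and 0.611 by edgeR. The genotypes did not overlap in either, as in the lower direction for 7.63% of all genes tested. These values are given as a description. Cxcr2, a neutrophil receptor, overlapped, with -0.54 and a standard error of 0.56. The remaining 7 (Ccr3, Ccr4, Ccr6, Ccr8, Ccr10, Cxcr1 and Cxcr5) had between 0 and 10 reads in every library. Among the 5 atypical receptors, Ackr3, a scavenger of CXCL12, was at 98.6 ± 35.2 CPM in ACKR4_KO and 101 ± 9.23 CPM in WT, and the libraries of Ackr4 were the only ones that did not overlap.

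**Figure D3:**
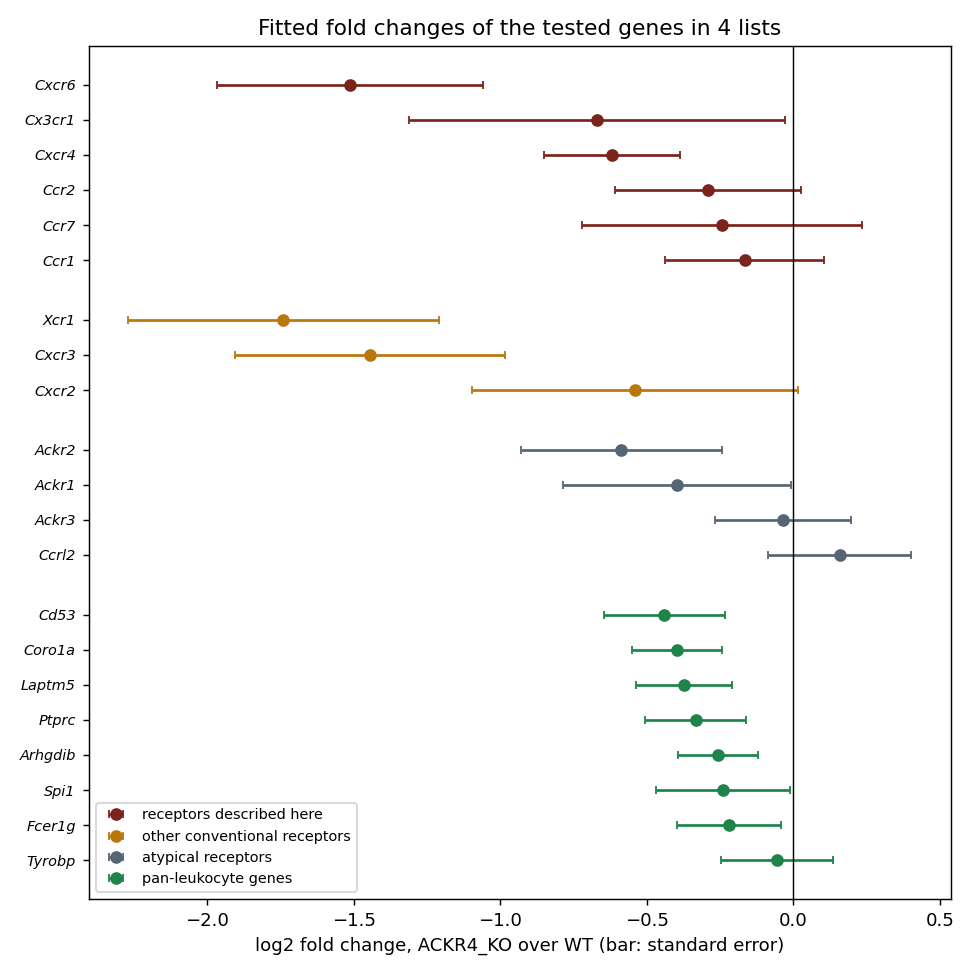
Fitted log2 fold changes of ACKR4_KO over WT with standard errors (edgeR) for the tested genes of 4 lists, with Ackr4 left out. The 6 tested receptors lie between -1.51 for Cxcr6 and -0.17 for Ccr1, the 3 tested other conventional receptors between -1.74 for Xcr1 and -0.54 for Cxcr2, and the pan-leukocyte genes between -0.44 and -0.06. Cxcr6 and the 3 other conventional receptors met the filter with their WT counts alone and not with their ACKR4_KO counts alone.

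Because pan-leukocyte genes had lower means too, each receptor was set against Ptprc in the same library, as the log2 ratio with 0.5 CPM added to both. Which cells carried each receptor was not measured, so the ratio is not a level per leukocyte. With 3 libraries against 3 the exact two-sided permutation test cannot go below p = 0.1. Cxcr4 and Cxcr6 reached this limit and the other 4 did not. The share of all genes that separate the genotypes on such a ratio was not computed, so this is a description. The Cxcr6 ratio to Ptprc was 0.0465, 0.0186 and 0.0278 in ACKR4_KO libraries, against 0.103, 0.0716 and 0.0541 in WT libraries. Its mean log2 ratio differed by -0.88 (exact permutation p = 0.1, 0.3 after Benjamini-Hochberg adjustment over 6 receptors). For Cxcr4 the ratio was 0.633, 0.558 and 0.641 in ACKR4_KO libraries, against 0.645, 0.799 and 0.806 in WT libraries, a log2 difference of -0.28 (exact permutation p = 0.1, adjusted 0.3). The gap between ACKR4_KO replicate 3 and WT replicate 1 was narrow. The Cx3cr1 ratio to Ptprc spread widely, with 0.328, 0.126 and 0.624 in ACKR4_KO libraries and 0.469, 0.378 and 0.627 in WT libraries. Ccr2, Ccr1 and Ccr7 had log2 differences of -0.04, 0.17 and 0.19, and their groups overlapped.

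**Figure D4:**
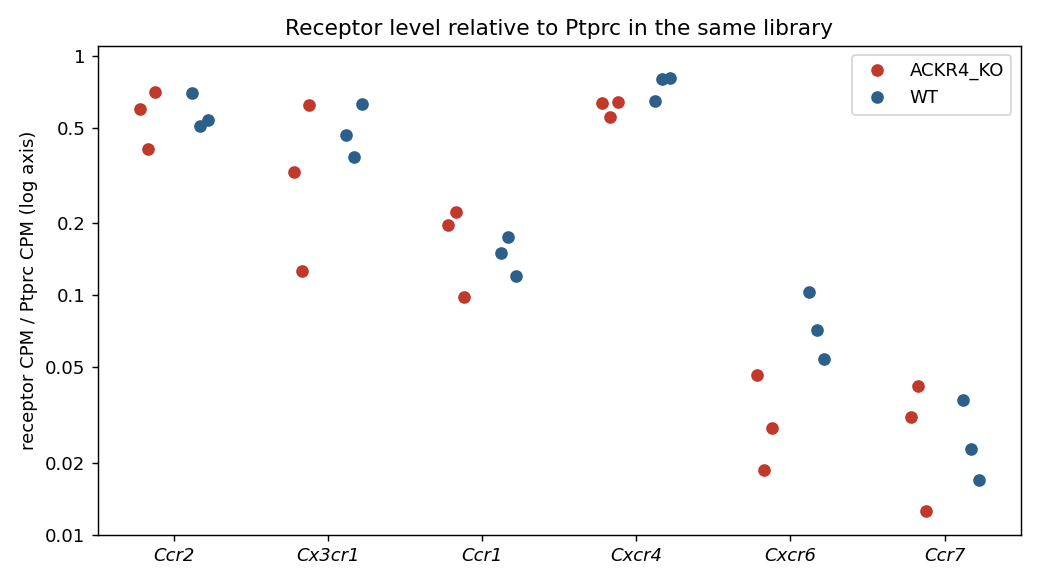
Ratio of receptor CPM to Ptprc CPM in each library on a log axis, ACKR4_KO left and WT right of each pair. The ACKR4_KO points lie below the WT points for Cxcr6 and, narrowly, for Cxcr4, and the genotypes overlap for Ccr2, Cx3cr1, Ccr1 and Ccr7. The share of all genes that separate on this ratio was not computed.

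The ligands of the 7 receptors formed a list of 16 genes, of which 15 had a read and 13 were tested. By the adjusted p of edgeR or DESeq2 0 passed. At an unadjusted p under 0.05 and in the lower direction there were 2 by edgeR, where 3.64% of all genes were, and 3 by DESeq2. Below 0 lay 8 of the 13, against 48% of all genes, with a median of -0.38. Leaving out replicate 2 of ACKR4_KO gave a median of -0.21, and leaving out replicate 2 of WT gave -0.20. In 4 of them, Cx3cl1, Cxcl12, Cxcl16 and Ccl5, the ACKR4_KO libraries lay below all WT libraries, as they did for 7.63% of all genes. Cx3cl1, the membrane-bound ligand of CX3CR1, was at 35.9, 17.3 and 29.0 CPM in ACKR4_KO libraries, against 38.0, 39.8 and 53.1 CPM in WT libraries (log2 fold change -0.67, standard error 0.26, edgeR's adjusted p = 0.661). Its lowest library was ACKR4_KO replicate 2, as for its receptor. Cxcl16, the ligand of CXCR6, had 32.4, 24.5 and 39.4 CPM in ACKR4_KO libraries, against 41.1, 42.1 and 41.9 CPM in WT libraries. Cxcl12 had 340, 330 and 214 CPM in ACKR4_KO libraries, against 402, 360 and 436 CPM in WT libraries, and its lowest library, ACKR4_KO replicate 3, was the ACKR4_KO library with the highest Cxcr4.

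The T cell and macrophage chemokine Ccl5 had 2.67, 2.56 and 2.88 CPM in ACKR4_KO libraries, against 6.54, 5.35 and 3.86 CPM in WT libraries (log2 fold change -0.95, standard error 0.28, edgeR's adjusted p = 0.606). The monocyte attractants Ccl2, Ccl7 and Ccl12 overlapped between genotypes, with log2 fold changes of -0.42, -0.63 and 0.05. In ACKR4_KO replicate 2, where Ccr2 was lowest, Ccl2 and Ccl7 were at 6.76 and 8.20 CPM, the highest of the 3 ACKR4_KO libraries. The macrophage chemokines Ccl6, Ccl8 and Ccl9 were lowest in ACKR4_KO replicate 3, the library with the lowest Ccr1, and their groups overlapped. Ccl3 lay at -0.85 with a standard error of 0.54.

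**Figure D5:**
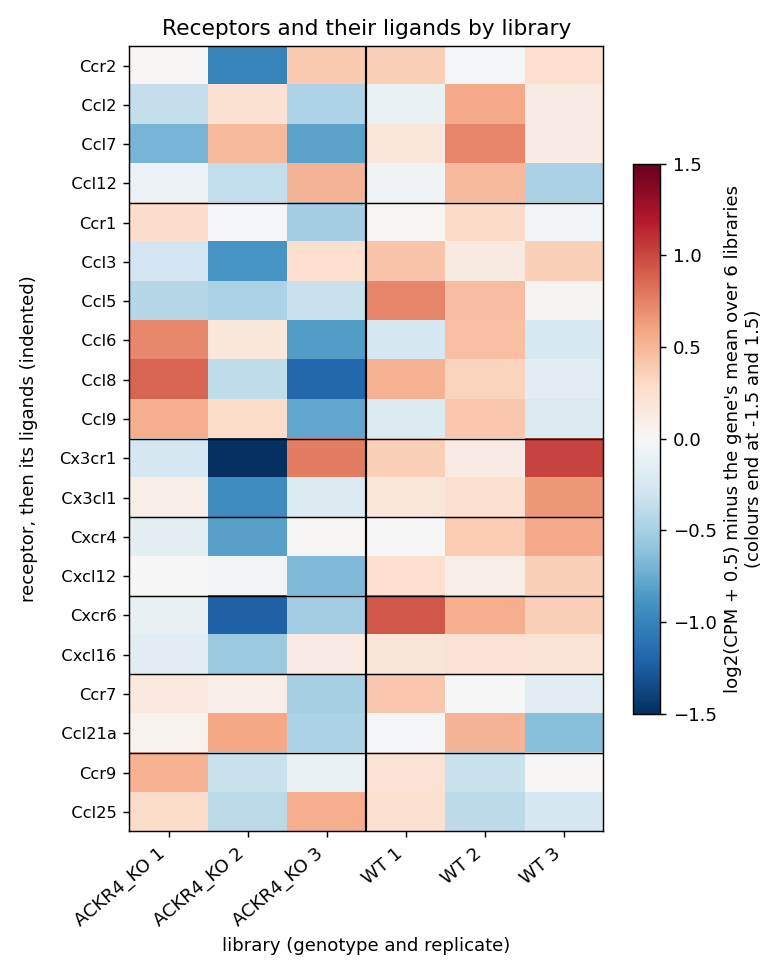
Centred log2(CPM + 0.5) of each receptor and, indented below it, its ligands with a tested level, in the 3 ACKR4_KO libraries (left) and the 3 WT libraries (right). In ACKR4_KO replicate 2 Ccr2, Cx3cr1, Cxcr4 and Cxcr6 have their lowest value of the 6 libraries (blue), while Ccl2 and Ccl7, at 6.76 and 8.20 CPM, have their highest ACKR4_KO value.

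Downstream of the receptors, the list of Gi signalling and motility genes held 28 genes, all tested, of which 24 lay below 0 and 4 above, with a median of -0.13, where 48% of all genes lay below 0. Without ACKR4_KO replicate 2 only 18 lay below 0. None passed the adjusted p of edgeR or DESeq2, and 2 had an unadjusted p under 0.05 by edgeR, both lower, where 3.64% of all genes did. Without ACKR4_KO replicate 2 or without WT replicate 3 there were 0 such genes. The 2 genes with such a p over all 6 libraries were Rgs1, which switches off G protein signals of chemokine receptors in lymphocytes, and Elmo1, an adaptor for Rac activation. Elmo1 was at 21.1, 22.1 and 23.6 CPM in ACKR4_KO libraries, against 26.5, 24.7 and 35.8 CPM in WT libraries. Rgs1 was at 0.797 ± 0.0862 CPM in ACKR4_KO and 1.99 ± 1.26 CPM in WT, and WT replicate 2 overlapped the ACKR4_KO libraries. The Gi subunit Gnai2, at 453 ± 72.2 CPM in ACKR4_KO and 448 ± 19.9 CPM in WT, had a log2 fold change of 0.02, and the arrestin genes Arrb1 and Arrb2 had -0.28 and -0.04.

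Markers of the cells that carry the macrophage receptors were described by 3 lists. Of 12 monocyte and macrophage genes 11 lay below 0 (median -0.17), where 48% of all genes did. Without ACKR4_KO replicate 2 it was 7 of 12, with a median of -0.0016, and without WT replicate 2 the median was -0.08. Their summed level overlapped between the genotypes, at 1829, 1226 and 1533 CPM in ACKR4_KO libraries and 1553, 1983 and 1851 CPM in WT libraries. Of 8 markers of resident macrophages 6 lay above 0 and 2 below (median 0.41), where 48% of all genes lay below 0. Without ACKR4_KO replicate 1 the median was 0.20. In the higher direction 3 of them had an unadjusted p under 0.05 by edgeR, where 3.81% of all genes did. Gas6, a ligand of clearance receptors, met the same mark in the lower direction. In the 3 higher ones, Cd163, Cbr2 and Folr2, the ACKR4_KO libraries lay above all WT libraries, as 6.53% of all genes did. Cd163, a hemoglobin scavenger receptor, was at 47.7, 35.2 and 28.8 CPM in ACKR4_KO libraries, against 18.6, 22.2 and 23.8 CPM in WT libraries (edgeR, adjusted p = 0.606). Among 8 genes of recruited monocytes 6 lay below 0. The lowest p was that of Chil3, with 2.91, 2.05 and 0.960 CPM in ACKR4_KO libraries, against 52.4, 4.94 and 13.8 CPM in WT libraries. Chil3 is also a gene of alveolar macrophages, and its order among the WT libraries was that of the lung markers. Neutrophil and B cell lists had 0 genes past the adjusted p by either tool, and 1 B cell gene, Cd79b, had an unadjusted p under 0.05.

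For the 4 receptors with a mean of at least 2 CPM, the genes with the most similar profile were found by the root mean square difference of centred log2 values over the 6 libraries, among 12116 genes. Nearest to Cxcr4 were Tlr13 (0.0466), Dap (0.0773) and Tpgs2 (0.10), where the median gene was at 0.476. Nearest to Cx3cr1 were Col12a1 (0.189), Kcnma1 (0.189) and Enpp1 (0.218), against a median of 0.998. Nearest to Ccr2 were Tmem273 (0.0891), Zfp40 (0.0949) and Itga10 (0.0950), and nearest to Ccr1 were Cdk20 (0.0481), Nsmce4a (0.0548) and Cmtm8 (0.0611). With 6 libraries and this many genes some close profiles arise in any case, and these are descriptions.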

How the data were processed

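Per the labels' protocols, frozen hearts were extracted with Trizol and 1 ug of RNA per sample went into NEBNext Ultra libraries. The deposited table holds raw counts, whole reads per Ensembl gene with 1 column per library, made by the authors with CASAVA 1.8.2, HISAT2 and HTSeq 0.6.0 on mm10, per the submitters' processing notes. Which annotation release and strand setting they used was not given in the sources used here. Symbols, coordinates and exonic lengths came from GENCODE M21 (GRCm38, the assembly of mm10), which covers 54495 of the 54532 rows.

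The members and gene lists were chosen with earlier results of these data known. Genes were filtered with filterByExpr of edgeR 4.0.16 (minimum count 10, minimum total 15), scaled by TMM, and tested with the robust quasi-likelihood test in R 4.3.3, two-sided, with p-values adjusted by Benjamini-Hochberg across the 14406 genes. The standard error is the fold change over the root of the test statistic. All 7 members are named. In each other list the tested genes with the smallest p (up to 4), all ligands with a read and all other conventional receptors could be named, and Gnai2, Arrb2, Ackr3, Cd79b and Fyco1 were chosen after their values were seen. Likeness excluded members and unnamed gene models. Alternatives used DESeq2 1.42.0, limma 3.58.1 (voom, also with 1 weight per group), other scalings and filters, a replicate block and each library left out. A further gene is not reported here. The tests were checked on simulated data. Total counts were 9422462 to 13910358 per library, where 3 reads correspond to 0.207 to 0.309 CPM. Nothing says that libraries came from separate animals, so p-values measure the spread between these libraries.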

Additional observations from a re-analysis of the deposited data

How the results depend on the processing

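None of the 6 receptors tested passed an adjusted p of 0.05 under any alternative run. The log2 fold change kept its sign in all alternatives for Cx3cr1 (-1.47 to -0.22), Cxcr4 (-0.78 to -0.41) and Cxcr6 (-1.97 to -1.18). It reversed in 1 each for Ccr1 (without ACKR4_KO replicate 3, 0.041), Ccr2 (without ACKR4_KO replicate 2, 0.014) and Ccr7 (without ACKR4_KO replicate 3, 0.047), with lowest values of -0.38, -0.61 and -0.42. Relative to Ptprc, differences with a library left out ran from -0.05 to 0.50 for Ccr1, -0.20 to 0.17 for Ccr2 and -0.09 to 0.53 for Ccr7. Reversals came without ACKR4_KO replicate 2 for Ccr1 (-0.052), Ccr2 (0.17) and Ccr7 (-0.093), without WT replicate 1 for Ccr2 (0.10) and without WT replicate 3 for Ccr7 (-0.0017). The cause was not tested. Cx3cr1, Cxcr4 and Cxcr6 kept their sign there in all 8 alternatives each.

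Over all genes, 39 passed by DESeq2, 24 without the filter on low counts, 6 with the replicate block, and 0 to 1 with a library left out, against 0 in the edgeR test. At an unadjusted p under 0.05 there were 478 to 1906 genes with a library left out, against 1073, with 1906 and 1846 without ACKR4_KO replicates 1 and 3 and 620, 669 and 478 without WT replicates 1, 2 and 3. The Ackr4 log2 fold change lay between -5.82 and -4.28, and passed by DESeq2 (-4.72), without the filter (-4.70) and without ACKR4_KO replicate 3 (-5.82). Whether the replicate numbers pair the libraries cannot be decided from 3 libraries per genotype. Correlations of same-numbered deviations were 0.0632, 0.0599 and 0.129. Those of differently numbered libraries ran from -0.141 to 0.0741, the highest being that of WT replicate 1 with ACKR4_KO replicate 2. The stricter filter removed Cxcr6 and Ccr7, and Ccr7 was filtered out without ACKR4_KO replicate 1 or WT replicate 1. For Ccr9 no fold change is given and no ratio was computed, so no alternatives are given for it. Depth limits Ccr7, Ccr9 and Cxcr6, with at most 45 reads per library.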
